A study of Mus musculus with 8 samples.

Results

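The troponins and tropomyosins are the calcium switch of the thin filament, and 10 of their genes were followed here among the 24411 gene symbols counted in 8 mouse hearts. They were taken by symbol: the troponin C genes Tnnc1 and Tnnc2, the troponin I genes Tnni1 and Tnni3, the troponin T genes Tnnt1, Tnnt2 and Tnnt3, and the tropomyosin genes Tpm1, Tpm2 and Tpm3. All 8 mice were C57BL/6 and had their aorta narrowed by transverse aortic constriction, which raises the pressure the left ventricle pumps against, and their hearts were taken 1 week later for sequencing of polyadenylated RNA. The 4 control mice carried MerCreMer, a Cre recombinase that stays inactive until its mutated oestrogen receptor domains bind a ligand, and the other 4 mice had a cardiac-specific knockout of the transcription factor Yin-Yang 1 (YY1 KO, gene Yy1). The sources used here do not give the promoter of the transgene, the time of induction, the ages, whether the controls carry an altered Yy1 allele or whether the knockouts carry MerCreMer. Unoperated hearts were not analysed here, so every difference below is between genotypes under pressure load.

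In each regulatory unit of the thin filament, troponin C binds calcium, troponin I holds the filament off in its absence, and troponin T ties the complex to tropomyosin, which lies along actin and covers or uncovers the myosin sites. The adult mouse heart uses Tnnc1 (the slow skeletal and cardiac troponin C), Tnni3 (cardiac troponin I), Tnnt2 (cardiac troponin T) and Tpm1 (alpha-tropomyosin). Tnni1 is the slow skeletal troponin I that the heart uses before birth, and is replaced by Tnni3 afterwards. Tnnt1 is the slow skeletal troponin T, while Tnnt3 and Tnnc2 are fast skeletal genes. Tpm2 (beta-tropomyosin) is prominent in fetal heart, skeletal and smooth muscle, and Tpm3 gives the slow skeletal form and cytoplasmic forms in many cell types. Tnnt2 and Tpm1 also make fetal and adult forms by splicing, which counts per gene do not separate.

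Yy1 itself stood at 18.04 to 23.8 CPM (the read count of a gene scaled to a common library size) in the YY1 KO hearts and at 33.8 to 37.2 CPM in the controls. The libraries held 14582605 to 16000455 reads in genes. The submitters give all mice as male, but 4 of the 8 libraries, controls 1 and 4 and YY1 KO 1 and 4, had 2156 to 3512 Xist reads and at most 2 reads of 4 Y-linked genes. The other 4 libraries were the reverse, so each genotype held 2 libraries of each kind, and the fold changes of the tested genes are also given for each kind alone. Every cardiomyocyte marker listed (10 of 10, among them Myh6, Actc1 and Ryr2) was detected in the hearts. RNA came from heart tissue and not from separated cell types, so fewer cells of a type and less RNA per cell cannot be told apart.

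The sequence before the start site is shown for the 3 main cardiac troponin genes, because their proteins form 1 complex while their transcripts did not change alike. The stretches are from RefSeq promoter windows on GRCm38.p6 (the mm10 build), written 5′ to 3′ on the gene's strand and ending at the base before the start site, with annotated exon bases left out. Capitals mark the motif found there. These are CATTCC or its reverse complement (the MCAT element, bound by TEAD factors) at position −58 in Tnnc1 and −27 in Tnnt2, and CCATNTT or its reverse complement (the core of the YY1 motif) at position −161 in Tnni3, with positions counted from the start site.
Tnnc1, chr14:31208062-31208311, plus strand: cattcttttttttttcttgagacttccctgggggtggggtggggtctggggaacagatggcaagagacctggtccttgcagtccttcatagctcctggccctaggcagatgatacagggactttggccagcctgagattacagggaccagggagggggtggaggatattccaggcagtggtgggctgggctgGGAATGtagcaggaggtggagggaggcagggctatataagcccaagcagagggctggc
Tnnt2, chr1:135836084-135836333, plus strand: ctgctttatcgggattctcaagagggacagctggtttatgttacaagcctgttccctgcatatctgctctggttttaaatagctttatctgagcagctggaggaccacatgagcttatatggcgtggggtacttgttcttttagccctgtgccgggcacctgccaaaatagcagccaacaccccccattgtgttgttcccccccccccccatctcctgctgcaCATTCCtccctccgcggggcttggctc
Tnni3, chr7:4522529-4522694, minus strand: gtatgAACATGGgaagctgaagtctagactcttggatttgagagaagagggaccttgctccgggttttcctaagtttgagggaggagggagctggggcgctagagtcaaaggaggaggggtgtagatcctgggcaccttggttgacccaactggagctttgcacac

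Promoter windows of 300 bases were found for 9 of the 10 genes, 12 windows in all. The YY1 core letters were in 3 of the 12 windows (1 of Tnni3 and both of Tpm3), against 16.08% of 32851 windows over all genes. The MCAT letters were in 3 of the 12 windows (1 each of Tnnc1, Tnnt2 and Tpm1), against 14.66% of windows over all genes. E-box letters (CANNTG) were in all 12 windows and in 72.31% of windows over all genes. The CArG and MEF2 motifs were in none of the 12 windows, against 1.629% and 3.187% over all genes. All motifs were searched on both strands without mismatches, and a match describes letters, not binding.

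Of the 10 genes, 8 were abundant enough to be tested, and 3 of them passed as higher and 1 as lower in the knockouts (edgeR quasi-likelihood test, threshold 0.05 on the adjusted p). Over all 13506 tested genes, 21.6% were higher and 17.3% lower, so 38.9% changed in either direction. The genes that rose were Tnnt3, Tpm2 and Tpm1, and the gene that fell was Tnnc1. The values of the genotypes did not overlap for these 4 genes, as for 38.3% of all tested genes. Tnnt3 was abundant enough for the test only with its knockout reads. Tnnc2 and Tnni1 had too few reads for the test and are given below by their reads.

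**Figure D1:**
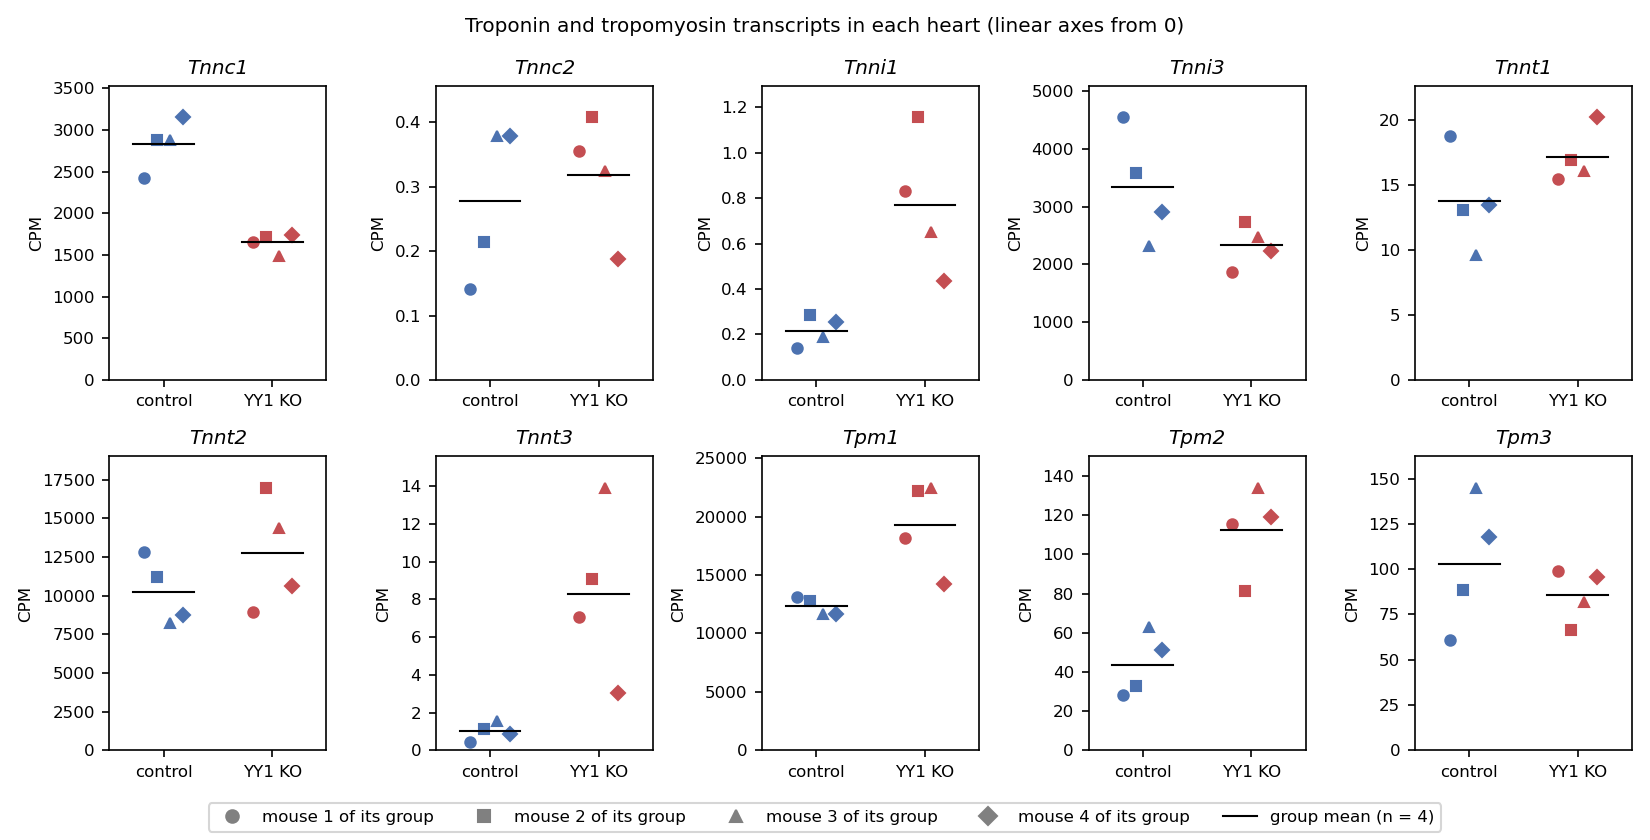
Level of each of the 10 genes in each heart, in CPM on linear axes that start at 0, with 1 symbol per mouse and a bar at the group mean (n = 4). The YY1 KO hearts sit wholly below the controls for Tnnc1 and wholly above them for Tnni1, Tnnt3, Tpm1 and Tpm2.

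Tnnc1, the troponin C of cardiac and slow skeletal muscle, was lower in every YY1 KO heart than in any control. It stood at 2429, 2883, 2886 and 3151 CPM in controls 1 to 4. In YY1 KO 1 to 4 it stood at 1658, 1711, 1493 and 1744 CPM. The spread among knockouts was narrow, and the lowest control lay well above the highest knockout. The means were 1651 ± 112 CPM in knockouts and 2837 ± 299.8 CPM in controls (SD, n = 4), which is 58.2% of the control level. On the log2 scale the fold change was −0.78 ± 0.12 (SE; edgeR adjusted p = 0.00174). In the Y-positive hearts alone it was −0.87 (edgeR adjusted p = 0.0291), and in the Xist-positive hearts alone −0.72 (edgeR adjusted p = 0.172). The 2 against 2 fit in Xist-positive hearts called 0 of the 13671 genes it tested.

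Tnnc1 (mm10 chromosome 14, 31208312 to 31211729, plus strand) lies within the bounds of Nisch on the opposite strand, which rose by a log2 fold change of 0.45 ± 0.087 (edgeR adjusted p = 0.00385). At most 3.59% of the strand-resolved reads of Tnnc1 came from the opposite strand. Counts of the annotated strand gave −0.78 for Tnnc1. The fast skeletal paralogue Tnnc2 (chromosome 2, 164777161 to 164779967, minus strand) was barely detected, at 2, 3, 6 and 6 reads in controls 1 to 4 and 6, 6, 5 and 3 reads in YY1 KO 1 to 4. These are 17 reads in the controls and 20 in the knockouts, and the genotypes overlapped.

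Tnni3 (chromosome 7, 4518305 to 4524229, minus strand), the inhibitory subunit of the adult heart, had a lower mean in knockouts but did not pass the test. It stood at 4545, 3580, 2318 and 2914 CPM in controls 1 to 4. In YY1 KO 1 to 4 it stood at 1866, 2737, 2484 and 2228 CPM. Control 1 was the highest of all hearts, and control 3 lay within the range of the knockouts. Its log2 fold change was −0.52 ± 0.22 (edgeR adjusted p = 0.0875). It passed without control 3 (log2 fold change −0.66, edgeR adjusted p = 0.0313) and in DESeq2 (−0.55, DESeq2 adjusted p = 0.0352). The value was −0.87 in the Xist-positive and −0.20 in the Y-positive hearts alone, and the difference between these did not pass (log2 difference 0.69 ± 0.42, edgeR interaction adjusted p = 0.812).

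Tnni1 (chromosome 1, 135779434 to 135810989, plus strand), the fetal troponin I, was read at the edge of detection in all hearts and more often in knockouts. Controls 1 to 4 had 2, 4, 3 and 4 reads, and YY1 KO 1 to 4 had 14, 17, 10 and 7 reads. The means were 0.768 ± 0.304 CPM in knockouts and 0.217 ± 0.0644 CPM in controls (SD, n = 4), and every knockout lay above every control. The gene was below the abundance filter, which asks for 10 reads in a library of median size in at least 4 libraries. Fitted without that filter, its log2 fold change was 1.77 ± 0.44 (edgeR adjusted p = 0.0129). In the Y-positive hearts alone the gene met the filter, but only through the 17 and 10 reads of YY1 KO 2 and 3. The log2 fold change there was 1.88 ± 0.61 and did not pass (edgeR adjusted p = 0.0660). In the knockouts, Tnni1 gave 0.0210 to 0.0461 reads for every 100 reads of Tnni3. Its upstream neighbour Phlda3 rose (log2 fold change 1.78 ± 0.33, edgeR adjusted p = 0.00345).

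Tnnt2 (chromosome 1, 135836354 to 135852260, plus strand), the cardiac troponin T, did not pass the test. It stood at 12841, 11196, 8256 and 8727 CPM in controls 1 to 4. In YY1 KO 1 to 4 it stood at 8960, 16971, 14387 and 10649 CPM. YY1 KO 2 and 3 lay above every control, whereas YY1 KO 1 and 4 lay within the control range. Tnnt2 had a log2 fold change of 0.31 ± 0.24 (edgeR adjusted p = 0.324), with −0.14 in the Xist-positive and 0.67 in the Y-positive hearts alone. Without YY1 KO 2 it was 0.14. YY1 KO 1 and 4 are the Xist-positive knockouts, and the difference between the kinds did not pass (log2 difference 0.83 ± 0.40, edgeR interaction adjusted p = 0.812). The interaction fit called 0 of 13506 genes, with 702 at an unadjusted p under 0.05. Lad1, which lies between Tnni1 and Tnnt2, rose from a low level (log2 fold change 1.27 ± 0.38, edgeR adjusted p = 0.0279).

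Tnnt3, the fast skeletal troponin T, had the largest fold change of the tested troponin and tropomyosin genes. Controls 1 to 4 had 6, 16, 25 and 14 reads, which are 0.423, 1.14, 1.58 and 0.885 CPM. YY1 KO 1 to 4 had 119, 134, 214 and 49 reads, which are 7.06, 9.10, 13.9 and 3.05 CPM. Control 1 was below the abundance cut, so the gene met the filter only with its knockout reads. The lowest knockout, YY1 KO 4, still lay above the highest control. Its mean of 8.28 ± 4.51 CPM in knockouts was 8.23-fold the control mean of 1.01 ± 0.483 CPM (SD, n = 4). This was a log2 fold change of 3.02 ± 0.51 (edgeR adjusted p = 0.00208), with 3.05 in the Y-positive hearts alone (edgeR adjusted p = 0.00493) and 2.92 in the Xist-positive hearts alone (edgeR adjusted p = 0.105).

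Tnnt3 (mm10 chromosome 7, 142498836 to 142516009, plus strand) overlaps Prr33 on the opposite strand. Prr33 went the other way, from 16.7 to 27.8 CPM in controls to 6.72 to 12.1 CPM in knockouts (a log2 value of −1.24 ± 0.21, edgeR adjusted p = 0.00243). At most 12.2% of the strand-resolved reads of Tnnt3 came from the opposite strand, and counts of the annotated strand gave a log2 fold change of 3.01. The next gene on the other side, Mrpl23, also fell (−0.67 ± 0.11, edgeR adjusted p = 0.00180). Tnni2, the fast skeletal troponin I, is not among the 10 genes and was looked at as the usual partner of Tnnt3. It had 32 reads in the controls and 25 in the knockouts, too few to test.

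Tnnt1 (chromosome 7, 4504570 to 4516382, minus strand), the slow skeletal troponin T, stood at 9.60 to 18.8 CPM in controls and 15.5 to 20.2 CPM in knockouts. Control 1, at 18.8 CPM, was above 3 of the 4 knockouts. The log2 fold change of 0.32 ± 0.19 did not pass (edgeR adjusted p = 0.207), but without control 1 it was 0.50 with an edgeR adjusted p of 0.0337. It was 0.14 in the Xist-positive and 0.52 in the Y-positive hearts alone, and passed in neither (edgeR adjusted p = 0.754 and 0.110). Tnnt1 and Tnni3 are neighbours on chromosome 7 and the same strand, 1922 bp apart, and neither passed over all 8 hearts. On the other side of Tnnt1, Ppp1r12c rose (log2 fold change 0.97 ± 0.28, edgeR adjusted p = 0.0234).

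Tpm1 (chromosome 9, 67022590 to 67049406, minus strand), which encodes the alpha-tropomyosin of the adult heart, was higher in every knockout. It stood at 13152, 12804, 11644 and 11669 CPM in controls 1 to 4. In YY1 KO 1 to 4 it stood at 18189, 22197, 22442 and 14220 CPM. The controls were close together, while the knockouts spread from just above the controls to well above them. The means were 19262 ± 3886 CPM in knockouts and 12317 ± 776 CPM in controls (SD, n = 4), a 1.56-fold difference. Its log2 fold change was 0.65 ± 0.18 (edgeR adjusted p = 0.0196). The call was lost without control 2 (edgeR adjusted p = 0.0521), control 4 (0.0610) or YY1 KO 3 (0.0637), where the log2 fold changes were 0.65, 0.61 and 0.57. It was 0.85 in the Y-positive hearts alone (edgeR adjusted p = 0.0488) and 0.38 in the Xist-positive hearts alone (edgeR adjusted p = 0.488).

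Tpm2 (chromosome 4, 43514711 to 43523765, minus strand), which encodes beta-tropomyosin, was at a far lower level and rose more in relative terms. It stood at 28.2, 32.7, 63.2 and 51.2 CPM in controls 1 to 4. In YY1 KO 1 to 4 it stood at 115, 81.2, 134 and 119 CPM. Every knockout lay above every control, and controls 1 and 2 were the lowest. The means were 112 ± 22.2 CPM in knockouts and 43.8 ± 16.3 CPM in controls (SD, n = 4), a 2.56-fold difference. Its log2 value was 1.36 ± 0.26 (edgeR adjusted p = 0.00391), with 1.15 in the Y-positive hearts alone (edgeR adjusted p = 0.0695) and 1.56 in the Xist-positive hearts alone (edgeR adjusted p = 0.100). Its neighbour Tln1 on chromosome 4, the gene of the cytoskeletal linker talin, rose as well (0.59 ± 0.18, edgeR adjusted p = 0.0283). Car9, 981 bp from Tpm2 on the other side, did not pass (0.13 ± 0.44, edgeR adjusted p = 0.839). Among neighbours of the other genes, Dnaaf3, Sema3g, Snx21, Ube2c, Lactb and Nup210l did not pass either (smallest edgeR adjusted p = 0.215).

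Tpm3 (chromosome 3, 90072649 to 90100902, plus strand) did not pass the test and varied widely among the controls. It stood at 60.8, 88.3, 145 and 118 CPM in controls 1 to 4. In YY1 KO 1 to 4 it stood at 99.2, 66.6, 81.9 and 95.6 CPM, all within the control range. Its log2 fold change was −0.26 ± 0.25 (edgeR adjusted p = 0.423), with −0.67 in the Y-positive and 0.12 in the Xist-positive hearts alone. Without control 1 it was −0.46 (edgeR adjusted p = 0.0867), and without control 3 it was −0.055 (edgeR adjusted p = 0.866). The remaining tropomyosin gene Tpm4, a cytoplasmic form that is not among the 10, ranged from 138 to 361 CPM in controls and from 94.1 to 201 CPM in knockouts and did not pass either (−0.77 ± 0.32, edgeR adjusted p = 0.0853). The mouse annotation lists a related sequence, Tpm3-rs7, and how reads shared with it were counted was not tested.

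**Figure D2:**
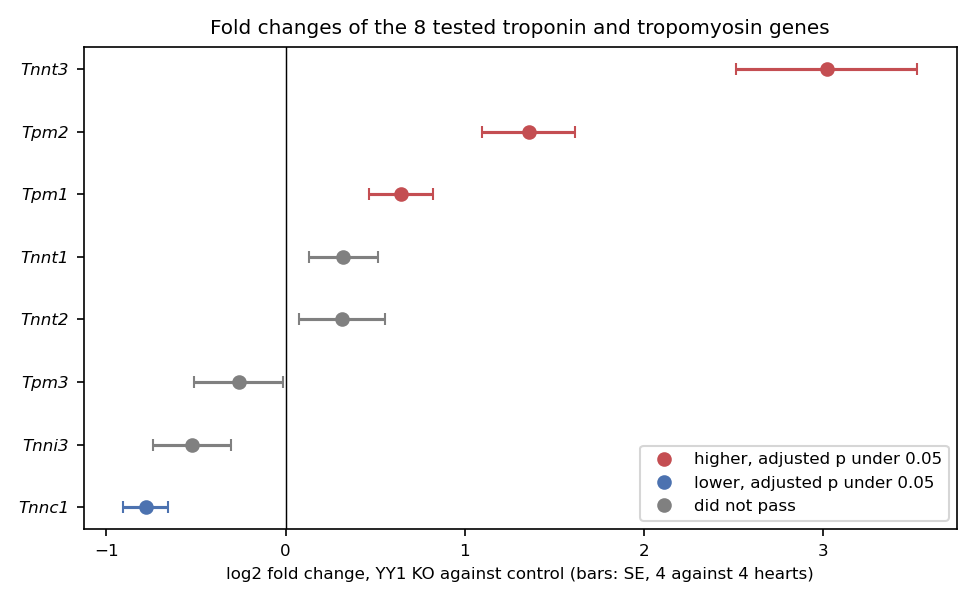
Log2 fold change of YY1 KO against control for the 8 tested genes, with bars of 1 standard error (4 against 4 hearts). Tnnt3 (3.02), Tpm2 (1.36) and Tpm1 (0.65) passed as higher and Tnnc1 (−0.78) as lower, while Tnnt1, Tnnt2, Tnni3 and Tpm3 did not pass.

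Levels of different genes were compared as CPM per kb of annotated exon, with each gene's exons merged. In controls Tnnc1 was highest at 2726 ± 288 CPM per kb, followed by Tpm1 (1899 ± 119.7), Tnni3 (1619 ± 463) and Tnnt2 (1323 ± 278). Tnnc1 (2334 to 3027) lay above the other 3 in every heart, Tnni3 (1124 to 2203) overlapped both Tpm1 and Tnnt2, and Tpm1 (1796 to 2028) did not overlap Tnnt2 (1065 to 1656). The minor genes were far lower, at 16.9 ± 5.97 CPM per kb for Tpm3, 15.1 ± 5.61 for Tpm2 and 6.24 ± 1.72 for Tnnt1. Tnnt3 (0.636 ± 0.305), Tnnc2 (0.348 ± 0.150) and Tnni1 (0.0603 ± 0.0179) were lowest. In knockouts Tpm1 was highest at 2970 ± 599, with Tnnt2 at 1644 ± 467, Tnnc1 at 1586 ± 107 and Tnni3 at 1129 ± 180.4 CPM per kb. There Tpm1 lay narrowly above Tnnt2 (2193 to 3461 against 1156 to 2189), Tnnt2 overlapped Tnnc1 and Tnni3, and Tnnc1 (1434 to 1675) lay above Tnni3 (905 to 1327). Per kb of the longest transcript, Tpm1 (4262) was above Tnnc1 (3935) in controls too. Per kb of the longest coding sequence, the control means were 12594 for Tpm1, 11319 for Tnnt2, 5875 for Tnnc1 and 5275 for Tnni3. The order of the main genes thus depends on the length used.

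Shares were taken within the followed genes of each family only, so Tnni2 and Tpm4 were left out. Among those genes, the cardiac ones made up nearly all of each family on this scale in both genotypes. The mean of Tpm4 was 256 CPM in controls and 150 CPM in knockouts, above those of Tpm2 (43.8 and 112) and Tpm3 (103 and 85.8). Tnni2 had 0.549 and 0.396 CPM, against 0.217 and 0.768 for Tnni1. Shares of troponin I and tropomyosin counted with Tnni2 and Tpm4 would be lower than those given here. Tnni3 gave 99.981% and Tnnc1 99.975% of their families per kb in knockouts. Within troponin T, Tnnt3 gave 0.313 ± 0.144% in knockouts and 0.0521 ± 0.0316% in controls. Per kb of the longest coding sequence these shares were 0.0714 ± 0.0328% and 0.0118 ± 0.00720%. Tnnt1 gave 0.501 ± 0.155% and 0.467 ± 0.0689%. Within tropomyosin, Tpm2 gave 1.33 ± 0.414% in knockouts and 0.793 ± 0.333% in controls, and Tpm3 gave 0.492 ± 0.175% and 0.890 ± 0.355%. The increases of Tnnt3 and Tpm2 were thus large in fold and small in share, and the shares of Tpm2 and of Tpm3 overlapped between genotypes.

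Because a ratio of genes within a library does not depend on scaling, each minor gene was also set against the main cardiac gene of its family, 6 ratios in all. The log2 ratio of Tnnt3 to Tnnt2 was higher in knockouts by 2.65 ± 0.64 (SE), and that of Tnni1 to Tnni3 by 2.12 ± 0.42. The genotypes did not overlap in these ratios, and each gave p = 0.0286 in a two-sided exact permutation test over 70 assignments, the smallest value that 4 against 4 allows. Adjusted over the 6 ratios by the Benjamini-Hochberg method, the exact permutation p was 0.0857 for both, so neither passed. Without control 1 the ratio of Tnnt3 to Tnnt2 differed by 2.19 (exact permutation p = 0.0571). The ratio of Tnnc2 to Tnnc1 differed by 0.99 ± 0.34 (exact permutation p = 0.0857, adjusted 0.171), on 2 to 6 reads of Tnnc2 per library.

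Within tropomyosin neither ratio to Tpm1 passed. The log2 ratio of Tpm2 to Tpm1 differed by 0.79 ± 0.40 (exact permutation p = 0.143, adjusted 0.171), with 0.33 in the Y-positive and 1.25 in the Xist-positive hearts alone. That of Tpm3 to Tpm1 differed by −0.83 ± 0.41 (exact permutation p = 0.114, adjusted 0.171), with −1.48 in the Y-positive and −0.17 in the Xist-positive hearts alone. The ratio of Tnnt1 to Tnnt2 differed by 0.062 ± 0.25 (exact permutation p = 0.771). Its sign was not stable when 1 heart was left out, with values from −0.090 to 0.22.

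**Figure D3:**
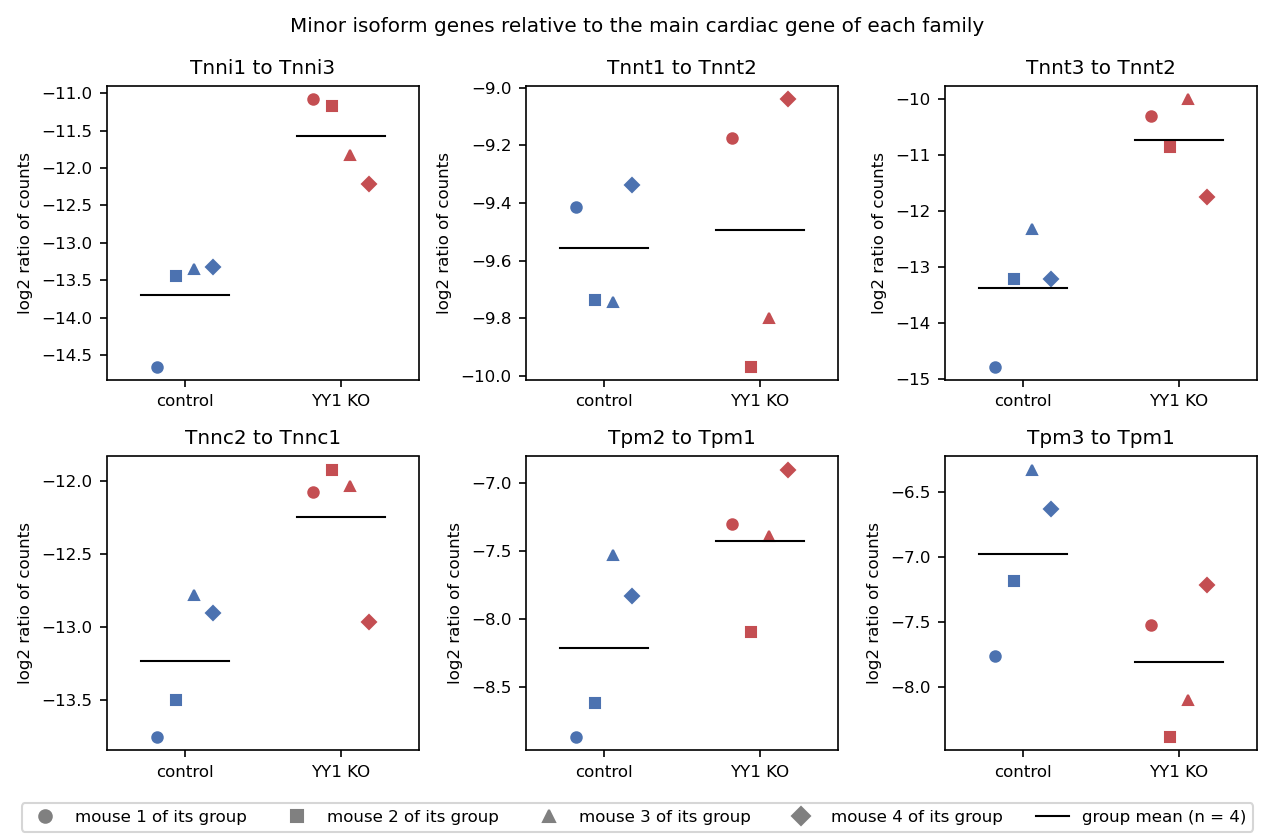
Log2 ratio of read counts of each minor gene to the main cardiac gene of its family in each heart, with 1 symbol per mouse and a bar at the group mean (n = 4). The ratios of Tnni1 to Tnni3 and of Tnnt3 to Tnnt2 lie higher in all 4 knockouts than in any control, while the other 4 ratios overlap.

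The transcripts of the main cardiac subunits did not keep one proportion across genotypes. These balances were chosen after the values were seen and are given as a description. For each read of Tnnc1, controls 1 to 4 had 5.41, 4.44, 4.03 and 3.70 reads of Tpm1, whereas YY1 KO 1 to 4 had 10.97, 12.98, 15.04 and 8.15. For each read of Tnni3, the controls had 2.83, 3.13, 3.56 and 2.99 reads of Tnnt2, against 4.80, 6.20, 5.79 and 4.78 in the knockouts. Both balances were higher in every knockout than in any control. For Tpm1 per Tnnc1 this was fixed by Tpm1 being higher and Tnnc1 lower in every knockout, and adds no evidence. How often gene pairs at large separate in this way was not tested. Tnnt2 per Tnnc1 also did not overlap, but the gap was narrow, as control 1 had 5.29 and YY1 KO 1 had 5.40. Tnni3 per Tnnc1 (0.803 to 1.87 in controls, 1.13 to 1.66 in knockouts) and Tpm1 per Tnnt2 (1.02 to 1.41 and 1.31 to 2.03) overlapped.

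**Figure D4:**
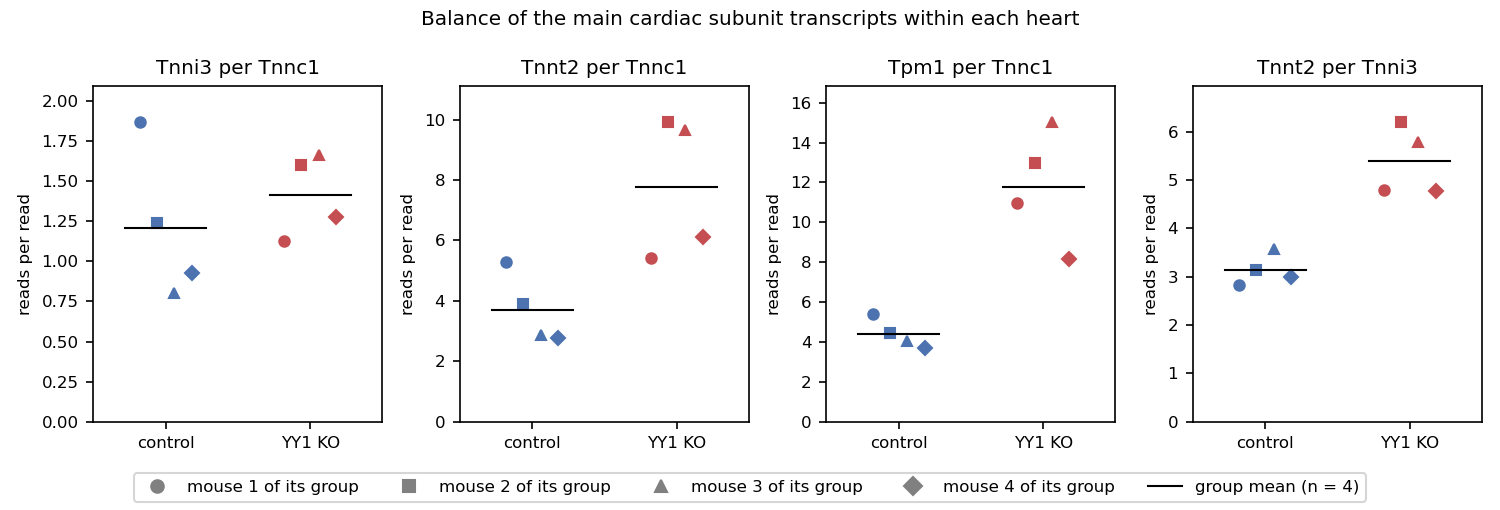
Reads of one main cardiac subunit gene per read of another in each heart, on axes that start at 0, with 1 symbol per mouse and a bar at the group mean (n = 4). Tpm1 per Tnnc1 and Tnnt2 per Tnni3 are higher in all 4 knockouts, and Tnni3 per Tnnc1 overlaps between genotypes.

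The hearts of one genotype also differed in a way that several of these genes shared. Tnni3 and Tnnt2 had the same order of mice, controls 1, 2, 4, 3 and YY1 KO 2, 3, 4, 1 from high to low. Tpm3 and Tpm4 had a common order too, controls 3, 4, 2, 1 and YY1 KO 1, 4, 3, 2, the reverse of the order of Tnni3 and Tnnt2 in both genotypes. Control 1 was thus highest of the controls in Tnni3, Tnnt1, Tnnt2 and Tpm1 and lowest in Tnnc1, Tnnt3, Tpm2 and Tpm3. The same heart had 159 CPM of Nppa, the natriuretic peptide transcript that rises with load, against 1213 to 4283 CPM in the other controls and 2989 to 4034 CPM in the knockouts. The part of this in the results was not tested. Without control 1, 5 of the 9 genes tested were called higher, with Tnnt1 and Tnni1 added, where 2732 of 13723 genes at large were higher. Tnni1 met the abundance filter there only through its knockout reads.

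The 3 genes whose profile over the 8 libraries came nearest to each changed gene were found by the root-mean-square difference of centred log2 CPM. For Tnnc1 these were Adrbk1 (0.0946), Dnajc15 (0.108) and Stard13 (0.109). For Tpm1 they were Gabarapl2 (0.0641), Wdr24 (0.0643) and Inca1 (0.0707). For Tpm2 they were Tgfb3 (0.137), a growth factor of the TGF-beta family, AI839979 (0.198) and Actn1 (0.205), the gene of non-muscle alpha-actinin. For Tnnt3 they were Rasgef1a (0.264), Ptprn (0.327) and Apobr (0.368).

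Other genes of the thin filament were called about as often as genes at large. Of 22 tested partners (actins, tropomodulins, leiomodins, nebulin relatives, capping proteins, cofilin, myosin-binding proteins, Tpm4, Tnni3k, Xirp1, Xirp2 and Fhod3), 3 rose and 5 fell. That is 36.4%, against 38.9% of all tested genes, with a median log2 fold change of −0.060 against 0.013 over all tested genes. Tmod4, a tropomodulin that caps the pointed end of the filament, fell from 18.4 ± 5.45 to 3.58 ± 1.09 CPM (log2 fold change −2.36 ± 0.27). Nebl, which encodes the Z-disc protein nebulette, fell from 70.7 ± 13.9 to 32.4 ± 3.89 CPM (−1.12 ± 0.15). Cfl2, the muscle cofilin that severs actin filaments, rose from 366 ± 45.9 to 651 ± 44.7 CPM (0.83 ± 0.12). Tnni3k, the kinase named for its binding to Tnni3, fell from 142 ± 34.9 to 84.9 ± 8.60 CPM (−0.74 ± 0.17). The largest edgeR adjusted p of these 4 was 0.00825. In the Y-positive hearts alone 1 partner passed as higher and 6 as lower, where 1730 of all 13626 tested genes were higher and 1606 lower. In the Xist-positive hearts alone 0 genes of any of the 4 lists passed.

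The main actin of the heart fell beside Tnnc1. Actc1 (cardiac alpha-actin) went from 15974 ± 1398 CPM in controls to 9660 ± 1919 in knockouts (−0.73 ± 0.18 on the log2 scale, edgeR adjusted p = 0.0121). Mybpc3, the cardiac myosin-binding protein C, rose (0.50 ± 0.15, edgeR adjusted p = 0.0244). Among 10 cardiomyocyte markers, which include both, 1 rose, 3 fell and 6 did not pass. That is 40.0% called, against 38.9% of all tested genes. Their summed level was 54415 to 71760 CPM in knockouts and 79004 to 97224 CPM in controls. The regulatory and essential light chain genes Myl2 (−1.27 ± 0.21) and Myl3 (−1.08 ± 0.20) were the other decreases (largest edgeR adjusted p = 0.00344). The part of this lower sum in the result for Tnnc1 was not tested.

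Of 25 tested genes for enzymes that phosphorylate or dephosphorylate troponin and tropomyosin, 5 rose and 5 fell (median log2 fold change −0.032). That is 40.0%, against 38.9% of all tested genes. DESeq2 called 5 higher and 8 lower, where 2879 of all 13506 tested genes were higher and 2808 lower. Ppp2r2a, a regulatory subunit of protein phosphatase 2A, fell by 0.48 ± 0.070 on the log2 scale, and its catalytic subunit gene Ppp2cb rose by 0.39 ± 0.084. Dapk3, a death-associated protein kinase, rose by 0.42 ± 0.073. Ppp1r12b, the muscle targeting subunit of protein phosphatase 1, fell by 0.53 ± 0.11. The largest edgeR adjusted p of these 4 was 0.00671. Without YY1 KO 1, 3 of the list were higher and 6 lower, where 2499 of all 13613 tested genes were higher and 1863 lower. In the Y-positive hearts alone, 2 were higher and 5 lower, where 1730 of all 13626 tested genes were higher and 1606 lower.

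Among splicing regulators of muscle transcripts, which choose the exons of Tnnt2 and Tpm1 among others, 2 of 19 tested fell and 0 rose in edgeR's test, against 17.3% lower and 21.6% higher over all tested genes. The share called, 10.5%, was below the 38.9% of all tested genes. Rbfox1 went from 39.1 ± 19.7 CPM in controls to 7.00 ± 3.67 in knockouts (−2.48 ± 0.46 on the log2 scale, edgeR adjusted p = 0.00319). Ptbp1, a repressor of muscle exons, went from 56.5 ± 15.6 to 35.9 ± 6.76 CPM (−0.66 ± 0.21, edgeR adjusted p = 0.0345). Srsf2 (−0.24 ± 0.089) and Ptbp3 (−0.32 ± 0.15) did not pass. DESeq2 called 3 of this list lower and 0 higher, and at library size alone 1 was lower and 1 higher. Of all 13506 tested genes, DESeq2 called 2808 lower and 2879 higher, and library size alone 1909 lower and 3339 higher. Without control 4 or YY1 KO 4, 1 was lower and 0 higher, without YY1 KO 3, 1 was lower and 1 higher, and without control 1, 3 were lower. These fits called 1668 to 2439 genes lower and 2192 to 2905 higher, of 13646 to 13723 tested. Whether exon use in Tnnt2 or Tpm1 differed was not analysed here.

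Among transcription regulators of sarcomere genes, 7 of 28 tested fell and 0 rose in edgeR's test, with a median log2 fold change of −0.20. That is 25.0%, against 38.9% of all tested genes in either direction and 17.3% lower. Yy1, the deleted gene, is 1 of the 7. Smyd1, a muscle methyltransferase needed for sarcomere assembly, fell from 665 ± 49.8 to 344 ± 59.8 CPM (−0.95 ± 0.14, edgeR adjusted p = 0.00109). Hdac4 (−0.59 ± 0.13), a histone deacetylase that represses MEF2 factors, and the homeobox gene Prox1 (−1.06 ± 0.24) fell too (largest edgeR adjusted p = 0.00758). DESeq2 called 9 lower and 1 higher, where 2808 of all 13506 tested genes were lower and 2879 higher. Without control 1 or without YY1 KO 4, 1 was higher, where 2732 of 13723 and 2905 of 13646 tested genes were higher. In the Y-positive hearts alone, 3 were lower and 1 higher, where 1606 of all 13626 tested genes were lower and 1730 higher.

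**Figure D5:**
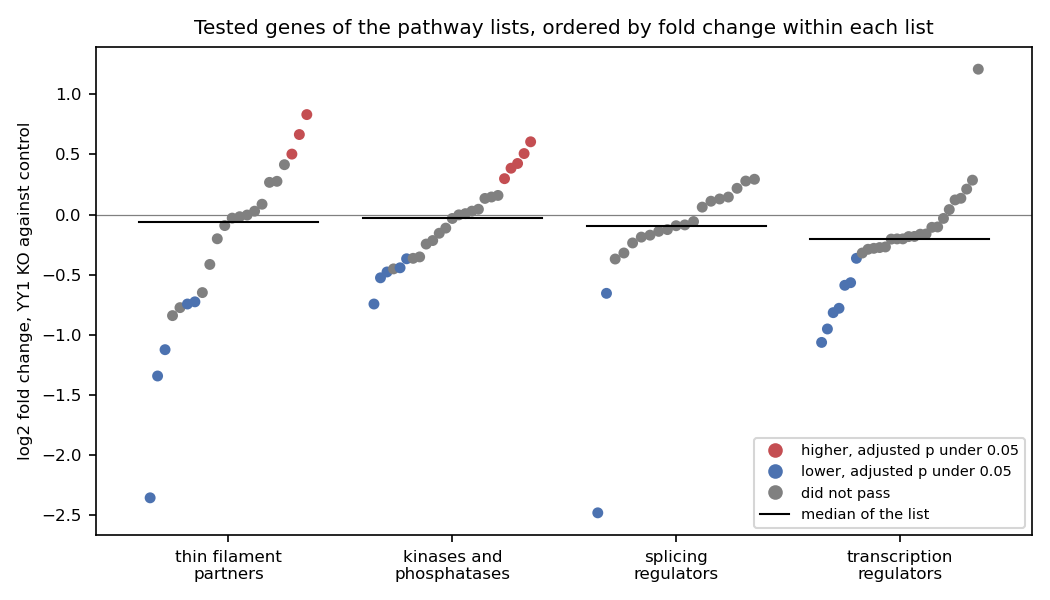
Log2 fold change of YY1 KO against control for each tested gene of 4 lists, ordered by value within a list, with a bar at the list's median. Passing genes lie on both sides of 0 among thin filament partners (3 higher, 5 lower) and among kinases and phosphatases (5 and 5), and below 0 only among splicing regulators (2) and transcription regulators (7).

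Markers of other muscle types were set beside the skeletal and smooth muscle isoforms. Of 14 skeletal fibre genes, 7 were tested, 1 rose and 1 fell. That is 28.6% of those tested, against 38.9% of all tested genes. The summed level was 242 to 477 CPM in knockouts and 102 to 252 CPM in controls. Mybpc2, the fast myosin-binding protein C, accounted for 137 to 307 CPM of this in knockouts and did not pass (log2 fold change 1.01 ± 0.45, edgeR adjusted p = 0.100). Myoz1 rose from 0.801 ± 0.372 to 1.80 ± 0.700 CPM (edgeR adjusted p = 0.0467), but met the abundance filter only with its knockout reads. Mylpf did not pass (0.80 ± 0.33), and the skeletal calcium channel gene Cacna1s fell by 2.83 ± 0.38. The defining fast myosin Myh4 was listed at 0 in every library, and Myh1 reached at most 0.142 CPM. Of the 5 myogenic precursor genes, 4 were at 0 in all libraries.

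Of 8 smooth muscle genes, 2 rose (Des and Cnn1) and 2 fell, where 21.6% of all tested genes were higher and 17.3% lower. The summed level of the 8 genes was 8711 to 13229 CPM in knockouts and 3049 to 4107 CPM in controls. Nearly all of this was Des, which cardiomyocytes also express, so its rise need not come from smooth muscle. Without Des the sum was 310 to 608 CPM in knockouts and 460 to 631 CPM in controls. Cnn1 (log2 fold change 2.50 ± 0.59) rose beside Tpm2, while Smtn (−1.30 ± 0.16) and Mylk (−0.61 ± 0.19) fell. The pericyte sum was lower in knockouts (348 to 443 against 538 to 740 CPM), with 3 of 5 genes lower (60.0%, against 17.3% of all tested genes). Their part in the rise of Tpm2 was not tested.

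Markers of the remaining cell types are set beside all tested genes, of which 21.6% were higher and 17.3% lower. In the fibroblast list 1 of 7 rose (14.3%), and in the endothelial list 5 of 6 fell (83.3%). None of 6 macrophage genes passed in edgeR's test. Of 7 atrial genes 4 were tested, of which 2 rose and 1 fell. Myl4 rose from 1.71 ± 0.511 to 9.62 ± 9.63 CPM (SD, n = 4). Bmp10 was at 0 in all libraries, and Myl7 and Sln had too few reads for the test. The adipocyte marker Cidea rose, and the 1 tested gene in each of the lymphocyte, erythroid and mesothelial lists did not pass. In the erythroid list the haemoglobin genes Hbb-bs, Hbb-bt, Hba-a1 and Hba-a2 were at 0 in all libraries, and why was not tested.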

How the data were processed

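The authors deposited raw read counts per gene symbol, with 1 table for each of the 8 hearts. The submitters' processing notes name Trimmomatic, STAR and the build mm10. The sources used here give no versions, settings or annotation. Counts irrespective of strand were used, and 33.0 to 38.9% of all reads were left out because they were unmapped, mapped to several places, were ambiguous between genes or lay in no gene. Groups came from the labels, which number separate mice.

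The filterByExpr filter (10 reads in a library of median size, 0.648 CPM, in at least 4 libraries) left 13506 genes. Genotypes were compared in edgeR 4.0.16 by the robust quasi-likelihood F test after TMM scaling, with Benjamini-Hochberg adjustment over all tested genes and a threshold of 0.05. Levels are CPM from scaled library sizes, with 1 read worth 0.0594 to 0.0712 CPM. Standard errors are the log2 fold change divided by the square root of F. Ratios added 0.5 to each count and were tested by exact permutation. Lengths, positions and neighbours came from GENCODE M21 (GRCm38), and promoters from RefSeq.

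The 10 genes, the 4 pathway lists and the 13 marker lists were chosen with earlier results of these data known. Named genes are the 10, Yy1, at most 4 of each list with the smallest p, the nearest profiles and chromosomal neighbours. Tpm4, Tnni2, Nppa and single low markers were named after their values were seen. Alternatives were RLE, upper-quartile or no scaling, DESeq2 1.42.0, limma-voom 3.58.1, other filters, stranded counts, a replicate block, a sex term, hearts of one sex, other lengths, and leaving out each library. R 4.3.3 and Python 3.11.15 were used.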

Additional observations from a re-analysis of the deposited data

Results flagged for a closer look

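In 32 groups of 4 hearts examined (levels of 10 genes and 6 ratios in each genotype), 2 values stood apart from the other 3 hearts of their group, where chance gives about 1 in 20 groups. The log2 ratio of Tnni1 to Tnni3 was −14.66 in control 1, on 2 reads of Tnni1, against −13.45 to −13.32 in the other controls. The log2 ratio of Tnnc2 to Tnnc1 was −12.96 in YY1 KO 4, on 3 reads of Tnnc2, against −12.07 to −11.92 in the other knockouts.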

How the results depend on the processing

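Scaling by RLE, upper quartile or library size alone, limma-voom, no filter, stranded counts and a sex term kept the direction and call of each of the 8 tested genes. The stricter filter did so for 7 and left Tnnt3 untested. DESeq2 called Tnni3 lower (log2 fold change −0.55) and so 2 genes lower. In the Xist-positive hearts alone (2 against 2), 0 of the 8 genes were called, as were 0 of all 13671 tested genes. The log2 fold changes there were −0.72 for Tnnc1, 2.92 for Tnnt3, 0.38 for Tpm1 and 1.56 for Tpm2. Those of Tnnt2 (−0.14) and Tpm3 (0.12) were of the other sign than over all 8 hearts. In the Y-positive hearts alone the Tpm2 call was lost (1.15). The log2 ratio of Tnnt1 to Tnnt2 turned to −0.14 there, and that of Tpm3 to Tpm1 was −1.48 in Y-positive and −0.17 in Xist-positive hearts. These fits hold fewer hearts, and the cause of each other change was not tested.

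Leaving out 1 heart, 2 to 5 of the 8 or 9 genes tested were called higher and 1 to 2 lower. Tnni1 was among those called higher without any 1 of the controls and without YY1 KO 4. It met the abundance filter there only through its knockout reads. Over all genes these fits called 2192 to 2905 higher and 1668 to 2439 lower, of 13613 to 13726 tested. The log2 fold changes ran from −0.86 to −0.73 for Tnnc1, −0.66 to −0.35 for Tnni3, 0.18 to 0.50 for Tnnt1, 0.14 to 0.45 for Tnnt2, −0.46 to −0.055 for Tpm3, 0.57 to 0.77 for Tpm1, 1.19 to 1.58 for Tpm2 and 2.65 to 3.32 for Tnnt3. The log2 ratio of Tnnt1 to Tnnt2 ran from −0.090 to 0.22 (−0.00037 without control 3 and −0.046 without YY1 KO 1).

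The replicate numbers share a number only: deviations of same-numbered hearts correlated at −0.46 to 0.34, and control 1 correlated best with YY1 KO 2. With the replicate block Tpm1 was no longer called (0.62, edgeR adjusted p = 0.0695), and 2210 genes were higher and 1816 lower instead of 2911 and 2337. Family shares again left out Tnni2 and Tpm4. Per kb of the longest coding sequence, the knockout share was 0.0373% for Tnni1, 0.0714% for Tnnt3 and 0.689% for Tpm2. Per kb of the longest transcript it was 0.796% for Tpm2. These lengths differ by construction. Depth limits Tnnc2 and Tnni1, at 2 to 17 reads per library.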
